A study of Homo sapiens with 8 samples.

Results

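Interferon-stimulated genes are the genes that cells transcribe when interferon reaches them, and 42 of them are described here in HCC827 and HCC4006, established human lung adenocarcinoma lines. The 42 genes were chosen by symbol. Each was found in both expression tables, on 41 of the 48405 rows, because IFITM1 and IFITM2 share 1 row whose name joins both genes. Of several rows with the same symbol, the one with the highest mean over the 8 libraries was used.

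Polyadenylated RNA was sequenced from 4 groups of cells with 2 libraries each, 8 libraries in all. The groups were HCC827 cells grown until resistant to gefitinib, HCC827 cells kept in the solvent DMSO, HCC4006 cells grown until resistant to gefitinib, and HCC4006 cells kept in DMSO. The labels name gefitinib as the treatment of the resistant groups and count a culture as resistant once it grew routinely at 3 µM. Gefitinib inhibits the kinase of the epidermal growth factor receptor, EGFR, and the series asks how such resistance arises. The growth protocol, which also mentions another inhibitor for resistant cultures in general, does not say whether drug was present at harvest. Effects of the drug and of resistance therefore cannot be told apart. All groups share RPMI-1640 medium with serum, and nothing states that a resistant group holds more than 1 selected culture. The 2 libraries of a group carry the letters A and B. No source states that they came from separate cultures, so the p-values rest on the spread between such libraries alone, and that spread may be technical.

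As background, type I and type III interferons bind receptors at the cell surface, and the kinases JAK1 and TYK2 then phosphorylate transcription factors, STAT2 among them. STAT2 joins IRF9 in a complex that binds the interferon-stimulated response element, a DNA motif near the start of many antiviral genes. Tumour cells can keep such genes on at a low level without added interferon, and they can also carry DNA or RNA in the cytosol that sensors detect.

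Values are FPKM, which count fragments relative to the length of the transcript and the size of the library. Between 17406 and 19333 rows lay above 0 in a library, with a median of 53.6 to 59.0 FPKM among them, and the sequencing depth is unknown. A listed 0 cannot be read as a silent gene. RPL10, a ribosomal protein gene that every growing cell uses, was listed at 4942 and 4742 FPKM in resistant HCC827 and at 0 in both DMSO HCC827 libraries. It was also listed at 4904 and 5972 FPKM in resistant HCC4006 and at 0 in both DMSO HCC4006 libraries. RPL10 was picked after its values were seen. No fold is given against a group listed at 0. Changes were tested with limma on log2(FPKM + 0.5), resistant minus DMSO within a line, a scale that understates the change of low genes. A row was called at a Benjamini-Hochberg adjusted p below 0.05 over all rows of the fit. In these bulk samples, fewer cells that express a gene and less of its RNA per cell cannot be told apart.

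Promoter windows show where the letters of the response element occur in the members. RefSeq start-site windows on GRCh38.p14, each running from 250 bases before to 50 bases after the start, were matched for 34 of the 42 members. The letters GAAANNGAAA, a core of the response element, were searched on both strands and occurred in 21 of the 34 windows, 61.8%, against 3.57% of all 35116 windows. GAAANGAAA, with 1 base between the repeats, was added after the windows had been seen. It occurred in 11 of the 34, 32.4%, against 3.12% of all windows, and in 5 of the 13 windows that lacked GAAANNGAAA. GAAANNGAAA and GAAANGAAA can overlap where the repeats run on. A match describes the letters only.

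The windows below are those of the ubiquitin-like protein gene ISG15, of IFI27, which had the highest FPKM of all members, and of OAS1 and XAF1, whose values differed strongly between libraries. They were chosen after the values were seen. Capitals mark GAAANNGAAA, or its reverse complement, in ISG15 and IFI27, and GAAANGAAA in OAS1 and XAF1.
ISG15, chr1:1013247-1013546, plus strand: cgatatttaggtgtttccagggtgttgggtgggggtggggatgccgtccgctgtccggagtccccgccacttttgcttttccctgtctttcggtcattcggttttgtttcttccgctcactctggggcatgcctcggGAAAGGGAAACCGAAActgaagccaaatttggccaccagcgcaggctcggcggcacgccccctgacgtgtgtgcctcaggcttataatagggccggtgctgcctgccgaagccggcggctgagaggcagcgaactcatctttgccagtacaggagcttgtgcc
IFI27, chr14:94110486-94110785, plus strand: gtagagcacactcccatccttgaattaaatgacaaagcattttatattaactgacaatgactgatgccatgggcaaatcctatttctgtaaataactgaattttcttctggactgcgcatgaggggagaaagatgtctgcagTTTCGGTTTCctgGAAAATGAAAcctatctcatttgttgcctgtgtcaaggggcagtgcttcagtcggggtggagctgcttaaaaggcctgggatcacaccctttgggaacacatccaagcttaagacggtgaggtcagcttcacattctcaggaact
OAS1, chr12:112906712-112907011, plus strand: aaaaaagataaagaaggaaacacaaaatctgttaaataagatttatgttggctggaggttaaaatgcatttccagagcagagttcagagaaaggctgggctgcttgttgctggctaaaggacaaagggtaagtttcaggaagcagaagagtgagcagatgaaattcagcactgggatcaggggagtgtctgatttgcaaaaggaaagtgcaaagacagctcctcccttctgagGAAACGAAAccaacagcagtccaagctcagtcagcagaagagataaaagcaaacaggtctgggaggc
XAF1, chr17:6755796-6756095, plus strand: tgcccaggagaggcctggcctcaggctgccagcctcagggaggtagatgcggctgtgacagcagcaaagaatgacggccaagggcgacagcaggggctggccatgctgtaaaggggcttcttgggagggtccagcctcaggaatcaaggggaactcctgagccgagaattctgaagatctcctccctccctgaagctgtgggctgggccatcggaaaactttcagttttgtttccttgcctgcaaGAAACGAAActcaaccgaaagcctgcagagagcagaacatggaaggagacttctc

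Single sites of 24 bases show the same repeat in other members discussed below. Capitals again mark GAAANNGAAA, and each site is written on the strand that carries these letters.
IFIT1: acctaggGAAACCGAAAggggaaa
OAS3: cgggcggGAAAACGAAAccagaaa
MX1: cagaaatGAAACCGAAActgaatt
IFITM3: ctgttgaGAAACCGAAActactgg
BST2: tttctggGAAACTGAAActgaaaa
HERC5: tccagtgGAAAACGAAAcataatg
EPSTI1: attctgaGAAACCGAAActcagct

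The DMSO HCC827 libraries stood apart from each other in nearly the whole set, and this touches every comparison in that line. All 37 member rows above 0 in both of these libraries were higher in library A than in library B, against 58.1% of all such rows. Of the 37, 27 were at least 2-fold higher in A, against 10.1% of all rows, and 0 were at least 2-fold higher in B, against 5.67%. The A minus B difference of log2(FPKM + 0.5) ranged from 0.78 in HERC6 to 3.93 in MX2, with a median of 1.39 over the members and 0.11 over all rows. Summed over the 41 rows, the members held 31391 FPKM in library A and 8431 FPKM in library B, a 3.72-fold difference. Their share of all FPKM was 0.593% in A and 0.176% in B.

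In the other 3 groups the members lay on both sides. In resistant HCC827, 17 of 40 member rows were higher in A, with a median A minus B of -0.39 log2 units and sums of 11919 and 19251 FPKM. There, 2 were at least 2-fold higher in A, against 13.5% of all rows, and 7 at least 2-fold higher in B, against 11.3%. In resistant HCC4006, 11 of 36 were higher in A, with a median of -0.12 and sums of 5099 and 6123 FPKM. None was at least 2-fold higher in A, against 2.18% of all rows, and 2 were in B, against 3.83%. In DMSO HCC4006, 19 of 34 were higher in A, with a median of 0.07 and sums of 7855 and 6122 FPKM. Of these, 8 were at least 2-fold higher in A, against 15.9% of all rows, and 5 in B, against 12.8%. Among all rows, the share higher in A was 50.2%, 48.4% and 52.2% in these 3 groups. The letters name libraries only, and no source ties A in one group to A in another.

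**Figure D1:**
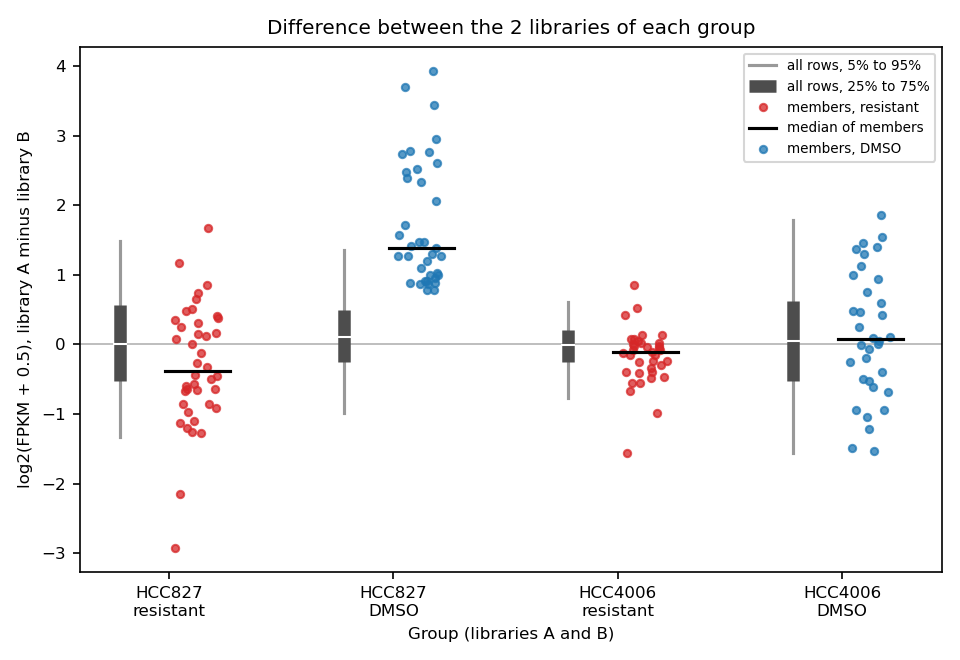
Difference between library A and library B of each group, in log2(FPKM + 0.5), for each member row above 0 in both libraries (points, with the median as a black line) and for all such rows (grey bars, 25% to 75% and 5% to 95%). In DMSO HCC827 every member lies above 0, from 0.78 to 3.93, while in the other 3 groups the members lie on both sides of 0.

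In HCC827, most members were lower in resistant cells, but the size and often the direction depended on which DMSO library was used. Of 40 tested rows, 31 had a negative and 9 a positive log2 change, with a median of -0.76 against -0.04 over all rows. Limma called 1 member row higher, IFITM1/IFITM2, where 5.13% of all 19324 rows were called higher. It called 0 lower, where 1.67% of all rows were, and 2 members were lower and 1 higher at an unadjusted p below 0.05, against 18.2% of all rows in either direction. Both resistant libraries lay below both DMSO libraries in 14 member rows, against 24.7% of all rows, and above both in 2, against 24.3%, and the groups overlapped in 24. In a fit over rows above 0 in every library, limma called 0 of 37 members in either direction. There, 6 were lower and 0 higher at an unadjusted p below 0.05, or 7 lower with a mean of at least 0.5 FPKM also required. In the first of these fits 6 rows of the whole table were called higher and 4 lower.

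Set against DMSO library A alone, the mean of the resistant libraries was lower in 36 of 37 members above 0 in all 4 libraries, with a median difference of -1.43 log2 units. Set against DMSO library B alone, it was lower in 20 of 37, with a median of -0.10. Over all rows these medians were -0.16 and -0.05. Both resistant libraries lay below DMSO A in 34 of the 37, against 41.7% of all rows, and above it in 0, against 28.2%. They lay below DMSO B in 14, against 35.4%, and above DMSO B in 12, against 33.3%. Without DMSO A the median change of the 40 tested members was 0.052 and 11 members changed from negative to positive. These were ISG15, ISG20, IFIT2, OAS1, OASL, MX1, IFITM3, IFI6, IFI44, IFI44L and TRIM21. Without DMSO B the median was -1.34. In neither case did limma call any row of the whole table, so the loss of a call there says nothing about a single gene.

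**Figure D2:**
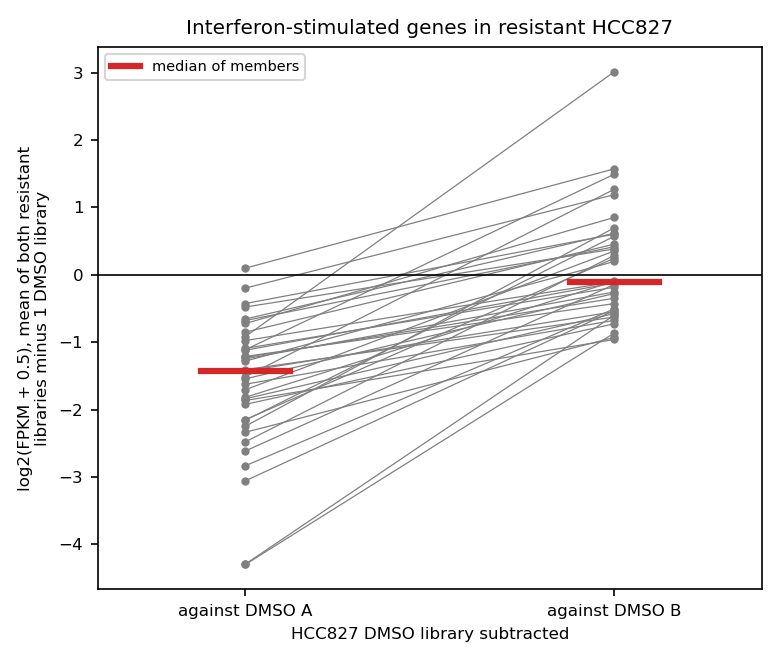
Mean of both resistant HCC827 libraries minus 1 DMSO library, in log2(FPKM + 0.5), for the 37 members above 0 in all 4 libraries; each line joins the values of 1 member and red bars give the medians. Against DMSO A 36 of the 37 lie below 0 (median -1.43), and against DMSO B 20 lie below 0 (median -0.10).

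In HCC4006, most members also had a negative change in resistant cells, and ISG15, OAS1, OAS2, OASL and IFITM1/IFITM2 passed the test as lower, while OAS3 did not. Of 37 tested rows, 29 had a negative and 8 a positive log2 change, with a median of -0.47 against -0.01 over all rows. Limma called 5 member rows lower, where 2.98% of all 19881 rows were called lower: ISG15, OAS1, OASL, OAS2 and IFITM1/IFITM2. It called 3 higher, where 6.37% of all rows were: IFITM3, MX2 and PARP9, each listed at 0 in both DMSO libraries. At an unadjusted p below 0.05 there were 12 of 37, against 23% of all rows. Both resistant libraries lay below both DMSO libraries in 18 member rows, against 26.5% of all rows, and above both in 5, against 26.6%, and 14 overlapped. In a fit over rows above 0 in every library, limma called 0 of 33 members in either direction, with 8 lower at an unadjusted p below 0.05. In that fit 4 rows of the whole table were called higher and 19 lower. The median change stayed between -0.53 and -0.36 when each library was left out in turn.

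The change was compared with the gap between the libraries of each group. In HCC827, the resistant minus DMSO change exceeded both A minus B gaps in 7 of 37 members above 0 throughout, against 32.3% of all such rows. In HCC4006 it did so in 14 of 33, against 36% of all such rows.

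**Figure D3:**
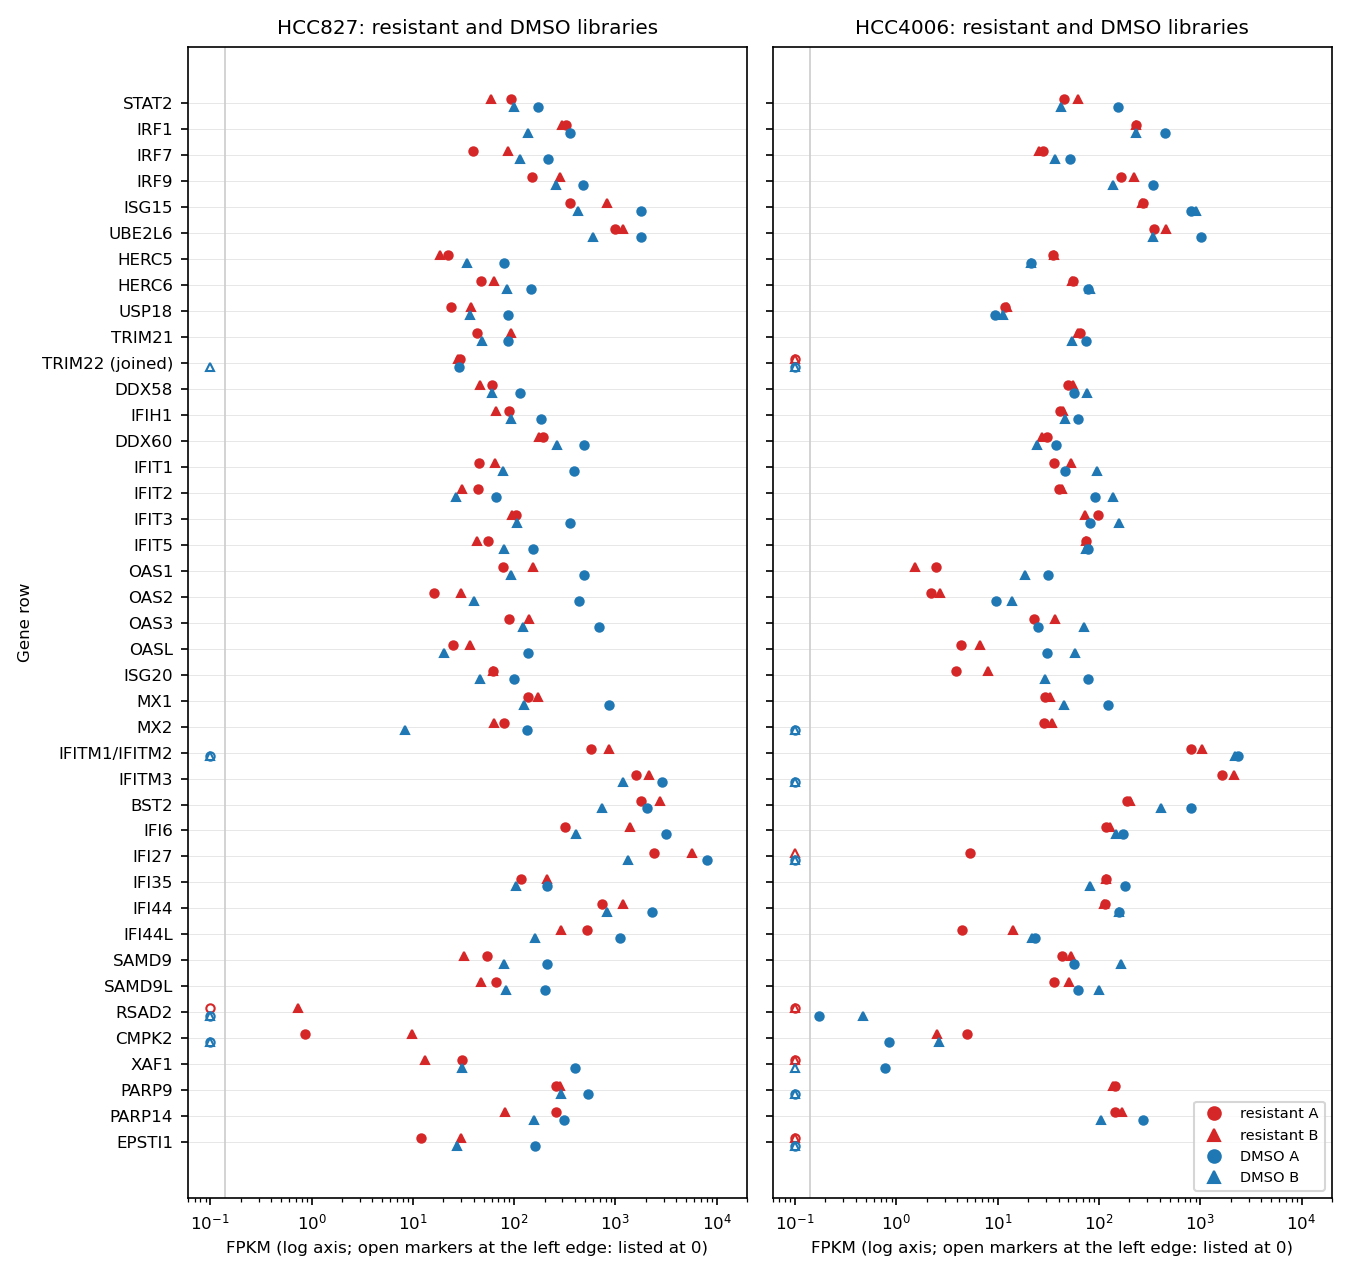
FPKM of each member row in the 4 libraries of HCC827 (left) and HCC4006 (right), on a log axis; red marks are resistant and blue marks DMSO libraries, circles library A and triangles library B, and open marks at the left edge are values listed at 0. In HCC827 the blue circles lie to the right of the blue triangles in every row above 0 in both, while in HCC4006 the red marks of ISG15, OAS1, OAS2 and OASL lie to the left of both blue marks.

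The transcription factors of the pathway come first. IRF7, which amplifies interferon production, was at 39.5 and 87.2 FPKM in resistant HCC827, against 215 and 115 FPKM in DMSO HCC827. Both resistant libraries lay below both DMSO libraries, with a log2 change of -1.41 (SE 0.55) that was not called by limma (Benjamini-Hochberg adjusted p = 0.288). In resistant HCC4006 IRF7 was at 28.1 and 25.5 FPKM, against 51.9 and 37.0 FPKM in DMSO HCC4006, again without overlap and not called. STAT2 and IRF9, which bind the response element together, and IRF1, which also acts downstream of interferon gamma, were called in neither line. Their log2 changes in HCC827 were -0.82, -0.79 and 0.50. The summed FPKM of these 4 factors was 1224 in DMSO HCC827 library A and 611 in library B, against 993 and 450 in the DMSO HCC4006 libraries.

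ISG15, at chr1:948802-949920 on hg19, encodes a ubiquitin-like protein that is attached to other proteins after interferon. It was at 360 and 825 FPKM in resistant HCC827, against 1778 and 426 FPKM in DMSO HCC827. The resistant values lay on either side of DMSO library B and below library A. Its log2 change there was -0.67 (SE 0.83), and it was 0.35 without DMSO A.

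In resistant HCC4006 ISG15 was at 270 and 268 FPKM, against 802 and 915 FPKM in DMSO HCC4006. The libraries of each group nearly coincided and the groups did not overlap. ISG15 fell by 1.67 on the log2 scale (SE 0.19, limma, adjusted p = 0.0180). When each library was left out in turn, the log2 change kept between -1.77 and -1.58. The call was lost without either resistant library. Those fits leave a lone library in a group, so the loss says little about ISG15 itself.

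The enzymes around ISG15 did not follow it as a group in HCC4006. UBE2L6, which carries ISG15 to its targets, had a log2 change of -0.56 there with overlapping groups, because DMSO library A held 1011 FPKM and library B 346 FPKM. HERC5, the main ISG15 ligase in human cells, was at 35.1 and 36.3 FPKM in resistant HCC4006, against 21.4 and 21.3 FPKM in DMSO HCC4006. Both resistant libraries were above both DMSO libraries, with a log2 change of 0.72 (SE 0.21) that was not called by limma (adjusted p = 0.153).

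In resistant HCC827 HERC5 was at 22.4 and 18.7 FPKM, against 78.9 and 34.2 FPKM in DMSO HCC827. Here both resistant libraries were below both DMSO libraries, with a log2 change of -1.32 (SE 0.50, not called by limma, adjusted p = 0.276). The difference between the lines, HCC827 minus HCC4006, was -2.05 and was not called either (limma, adjusted p = 0.0821). USP18, which removes ISG15 and restrains the interferon receptor, had log2 changes of -0.91 in HCC827 and 0.20 in HCC4006, where it turned negative after quantile normalization. TRIM22, named on a row that also names OR56B1, was at 29.6 and 28.1 FPKM in resistant HCC827, against 28.7 and 0 FPKM in DMSO HCC827, and was listed at 0 in all HCC4006 libraries.

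The genes whose products bind or cut RNA held 12 rows, and all 12 had a negative log2 change in both lines. In HCC827 the changes ran from -2.58 to -0.13 and in HCC4006 from -3.33 to -0.03. In HCC827 both resistant libraries lay below both DMSO libraries in 6 of the 12, against 24.7% of all rows, and in HCC4006 in 7, against 26.5%. Of all members tested, 31 of 40 had a negative change in HCC827 and 29 of 37 in HCC4006. Without DMSO library A, 4 of them, ISG20, IFIT2, OAS1 and OASL, were positive in HCC827, and IFIT2 was also positive without resistant library B. In HCC4006, DDX60 was positive without DMSO A or resistant B, and IFIT3 and OAS3 were positive without DMSO B.

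OAS1, OAS2 and OAS3 make the signal that activates the RNA-cutting enzyme RNase L, and OASL is a relative that lacks this activity. On hg19 the tables place OAS1 at chr12:113344738-113369794, OAS3 at chr12:113376156-113411050 and OAS2 at chr12:113416273-113449528, next to each other. OAS1 was at 2.44 and 1.54 FPKM in resistant HCC4006, against 31.5 and 18.5 FPKM in DMSO HCC4006. The resistant libraries were far below both DMSO libraries, a ratio of DMSO to resistant means of 12.6. OAS1 fell by 3.33 on the log2 scale (SE 0.42, limma, adjusted p = 0.0251).

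OASL was at 4.38 and 6.70 FPKM in resistant HCC4006, against 30.5 and 58.7 FPKM in DMSO HCC4006. The groups did not overlap, and OASL fell by 2.85 on the log2 scale (SE 0.46, limma, adjusted p = 0.0451). OAS2 was at 2.19 and 2.68 FPKM in resistant HCC4006, against 9.74 and 13.9 FPKM in DMSO HCC4006, and fell by 2.05 on the log2 scale (SE 0.34, limma, adjusted p = 0.0497). OAS3 was at 22.8 and 36.7 FPKM in resistant HCC4006, against 24.8 and 70.9 FPKM in DMSO HCC4006. Its groups overlapped, and its log2 change of -0.53 became 0.22 without DMSO library B. Each of OAS1, OAS2 and OASL missed the threshold when any of the 4 libraries was left out. Their log2 changes then ran from -3.71 to -2.96 for OAS1, from -2.30 to -1.81 for OAS2 and from -3.32 to -2.39 for OASL. The limit given for ISG15 holds here too, since these fits leave a lone library in a group.

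In HCC827 the same 4 genes showed the gap between the DMSO libraries. OAS1 was at 78.5 and 154 FPKM in resistant HCC827, against 489 and 92.7 FPKM in DMSO HCC827. OAS2 was at 16.1 and 29.6 FPKM in resistant HCC827, against 439 and 40.2 FPKM in DMSO HCC827. OAS3 was at 89.5 and 140 FPKM in resistant HCC827, against 686 and 123 FPKM in DMSO HCC827. DMSO library A exceeded library B 5.28-fold for OAS1, 10.9-fold for OAS2 and 5.56-fold for OAS3, and of these 3 genes OAS2 alone had both resistant libraries below library B. OASL was at 24.7 and 36.9 FPKM in resistant HCC827, against 136 and 20.1 FPKM in DMSO HCC827, so both resistant libraries lay above DMSO B. The log2 changes were -0.95 (SE 0.89) for OAS1, -2.58 (SE 1.20) for OAS2, -1.38 (SE 0.88) for OAS3 and -0.79 (SE 0.97) for OASL, none called. Without DMSO A they were 0.25, -0.86, -0.14 and 0.57 in the same order.

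The IFIT proteins bind viral RNA and block its translation. On hg19, IFIT1, IFIT2 and IFIT3 carry the same locus in the tables, chr10:90973325-91174314, so reads at their shared span may have been assigned to any of them, whereas IFIT5 lies next to it at chr10:91174342-91180758. IFIT1 was at 45.5 and 64.3 FPKM in resistant HCC827, against 388 and 77.0 FPKM in DMSO HCC827, with a log2 change of -1.67 (SE 0.83). IFIT5 was at 55.7 and 43.5 FPKM in resistant HCC827, against 153 and 78.9 FPKM in DMSO HCC827, with a log2 change of -1.15 (SE 0.43). For both genes the resistant libraries lay below both DMSO libraries, and neither was called (limma, adjusted p = 0.388 for IFIT1 and 0.273 for IFIT5). In HCC4006 the IFIT gene with the most negative change was IFIT2, at 40.5 and 42.9 FPKM in resistant cells, against 90.8 and 139 FPKM in DMSO cells. Its log2 change was -1.42 (SE 0.29) without overlap, not called by limma (adjusted p = 0.0812). IFIT5 had a log2 change of -0.03 there, with all 4 libraries between 73.8 and 77.2 FPKM.

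ISG20, an exonuclease that degrades RNA, was at 3.86 and 8.13 FPKM in resistant HCC4006, against 77.9 and 29.3 FPKM in DMSO HCC4006. The groups did not overlap, and the log2 change of -2.98 (SE 0.66) was the second largest decrease among the members of that line. It was not called by limma (adjusted p = 0.0947), though the fit over 8 libraries called it lower. In resistant HCC827 ISG20 was at 62.4 and 62.3 FPKM, against 100 and 46.6 FPKM in DMSO HCC827, so the resistant values fell between the DMSO values. DDX58 (RIG-I) and IFIH1 (MDA5), which sense viral RNA, and DDX60, a helicase of the same response, were called in neither line. Their log2 changes were -0.64, -0.75 and -0.99 in HCC827 and -0.32, -0.32 and -0.06 in HCC4006.

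The antiviral GTPases and membrane proteins held 5 rows, of which 2 had a negative and 3 a positive log2 change in HCC827, and 3 a negative and 2 a positive one in HCC4006. MX1, a GTPase that traps viral components, was at 138 and 174 FPKM in resistant HCC827, against 865 and 127 FPKM in DMSO HCC827. DMSO library A was far above the other 3 libraries, which lay close together, and the log2 change was -1.09 (SE 0.96), or 0.29 without DMSO A. In resistant HCC4006 MX1 was at 29.3 and 32.7 FPKM, against 124 and 45.0 FPKM in DMSO HCC4006, with no overlap and a log2 change of -1.26 (SE 0.57). Neither change was called by limma (adjusted p = 0.587 in HCC827 and 0.311 in HCC4006).

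MX2, its nuclear-envelope relative, was at 28.8 and 34.4 FPKM in resistant HCC4006 and was listed at 0 in both DMSO HCC4006 libraries. It was called higher there (limma, adjusted p = 0.00199). In resistant HCC827 MX2 was at 79.5 and 63.9 FPKM, against 135 and 8.38 FPKM in DMSO HCC827, the widest gap between these DMSO libraries of any member above 0 in both.

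The IFITM proteins sit in membranes and hinder the entry of viruses. The row that joins IFITM1 and IFITM2 lies at chr11:307630-315272 on hg19, and IFITM3 at chr11:319668-321340. The joined row was at 573 and 864 FPKM in resistant HCC827 and was listed at 0 in both DMSO HCC827 libraries. It was called higher (limma, adjusted p = 0.000444), a call absent without DMSO library A (adjusted p = 0.0739) or DMSO library B (adjusted p = 0.0609), fits in which no row of the table was called. In resistant HCC4006 the row was at 817 and 1037 FPKM, against 2371 and 2204 FPKM in DMSO HCC4006. The groups did not overlap, and the row fell by 1.31 on the log2 scale (SE 0.22, limma, adjusted p = 0.0489). That call was lost when any 1 of the 4 libraries was left out, with log2 changes from -1.48 to -1.14.

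IFITM3, the neighbouring gene, showed the opposite zeros. It was at 1639 and 2171 FPKM in resistant HCC4006 and listed at 0 in both DMSO HCC4006 libraries, and was called higher (limma, adjusted p = 0.000483). In resistant HCC827 it was at 1579 and 2148 FPKM, against 2901 and 1200 FPKM in DMSO HCC827, with a log2 change of -0.019 that was 0.62 without DMSO A. IFITM1, IFITM2 and IFITM3 are near-identical in parts of their sequence, so how reads were split between these rows is uncertain. The part of the listed zeros in these calls was not tested.

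BST2 (tetherin), which holds budding virus at the cell surface, was at 191 and 203 FPKM in resistant HCC4006, against 816 and 407 FPKM in DMSO HCC4006. The groups did not overlap, with a log2 change of -1.55 (SE 0.41) that was not called by limma (adjusted p = 0.131). In resistant HCC827 BST2 was at 1774 and 2763 FPKM, against 2066 and 743 FPKM in DMSO HCC827, with overlapping groups and a log2 change of 0.84 (SE 0.60). The difference between the lines, HCC827 minus HCC4006, was 2.38 and was not called (limma, adjusted p = 0.128).

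Among the remaining members, IFI27, a mitochondrial protein gene used as a marker of interferon exposure in blood, had the highest FPKM. It was at 2401 and 5726 FPKM in resistant HCC827, against 8005 and 1316 FPKM in DMSO HCC827. Both resistant values lay between the DMSO values. In HCC4006 it was listed at 5.39 FPKM in resistant library A and at 0 in the other 3 libraries.

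IFI6, which acts against apoptosis and viral replication, was at 317 and 1406 FPKM in resistant HCC827, against 3167 and 411 FPKM in DMSO HCC827, so both groups spread widely. In HCC4006 it was at 117 and 128 FPKM in resistant cells, against 175 and 146 FPKM in DMSO cells, with a log2 change of -0.39. IFI44L was at 527 and 290 FPKM in resistant HCC827, against 1115 and 162 FPKM in DMSO HCC827. In resistant HCC4006 it was at 4.50 and 14.2 FPKM, against 23.3 and 21.7 FPKM in DMSO HCC4006, a log2 change of -1.42 (SE 0.61) without overlap and not called. IFI44 and IFI44L carry the same locus on hg19, chr1:79034379-79129763.

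SAMD9 and SAMD9L restrain poxviruses and cell growth. SAMD9 was at 54.1 and 32.3 FPKM in resistant HCC827, against 213 and 79.9 FPKM in DMSO HCC827. SAMD9L was at 66.2 and 47.3 FPKM in resistant HCC827, against 201 and 83.5 FPKM in DMSO HCC827. In both genes both resistant libraries lay below both DMSO libraries, with log2 changes of -1.63 (SE 0.59) and -1.21 (SE 0.52), not called by limma (adjusted p = 0.258 and 0.332). In HCC4006 both were also lower without overlap and were not called. SAMD9L had a log2 change of -0.88 there.

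XAF1, a protein that opposes the inhibitor of apoptosis XIAP, was at 30.2 and 13.1 FPKM in resistant HCC827, against 400 and 30.5 FPKM in DMSO HCC827. Its log2 change of -2.44 (SE 1.31) rested on DMSO library A and was -0.60 without it. EPSTI1 was at 12.02 and 29.8 FPKM in resistant HCC827, against 161 and 27.6 FPKM in DMSO HCC827, and its log2 change of -1.79 (SE 0.98) was -0.53 without DMSO A. In HCC4006 EPSTI1 was listed at 0 in all 4 libraries and XAF1 in 3 of them.

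PARP9, which acts with the ubiquitin ligase DTX3L on interferon signalling, was at 144 and 137 FPKM in resistant HCC4006 and was listed at 0 in both DMSO HCC4006 libraries. It was called higher there (limma, adjusted p = 0.000551). In resistant HCC827 it was at 259 and 282 FPKM, against 532 and 290 FPKM in DMSO HCC827. DTX3L, which is no member but shares the locus of PARP9 in the tables, was likewise listed at 0 in both DMSO HCC4006 libraries, with 106 and 99.95 FPKM in resistant HCC4006. RSAD2 (viperin) stayed below 1 FPKM in all 8 libraries, and CMPK2, its neighbour on the same listed locus, at or below 9.81 FPKM. IFI35, PARP14, UBE2L6 and TRIM21 overlapped between resistant and DMSO libraries in both lines.

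The difference of the change between the lines was tested over all 8 libraries. Limma called 1 member row with a higher change in HCC827 than in HCC4006, IFITM1/IFITM2, where 6.27% of all 20685 rows were so called. It called 2 with a lower change, IFITM3 and PARP9, where 5.82% of all rows were. Each of the 3 has a group listed at 0, and over rows above 0 in all 8 libraries limma called 0 of 31 members, with 2 higher and 1 lower at an unadjusted p below 0.05. Of the 5 member rows called lower in HCC4006, IFITM1/IFITM2 alone had a change called different from that in HCC827. For ISG15 the difference, HCC827 minus HCC4006, was 0.997 (limma, adjusted p = 0.573), and for OAS1 it was 2.38 (adjusted p = 0.269).

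A part of the members stood at higher levels in HCC827 than in HCC4006, as far as levels can be set across the 2 tables, which may have been scaled separately. In 14 of 40 member rows all 4 HCC827 libraries lay above all 4 HCC4006 libraries, against 9.24% of all rows, and in 0 they lay below, against 12.9%. The lines overlapped in the other rows. The 14 were MX1, OAS1, OAS2, OAS3, IFI6, IFI27, IFI44, IFI44L, IFIH1, DDX60, USP18, XAF1, PARP9 and EPSTI1. Of these, EPSTI1 was listed at 0 in all 4 HCC4006 libraries and IFI27 and XAF1 in most of them. PARP9 was listed at 0 in both DMSO HCC4006 libraries. The place of these genes in the count rests partly on listed zeros. For IFI44, at 745 and 1180 FPKM in resistant HCC827 and 2276 and 817 FPKM in DMSO HCC827, the HCC4006 values were 115 and 114 FPKM in resistant and 156 and 158 FPKM in DMSO libraries.

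**Figure D4:**
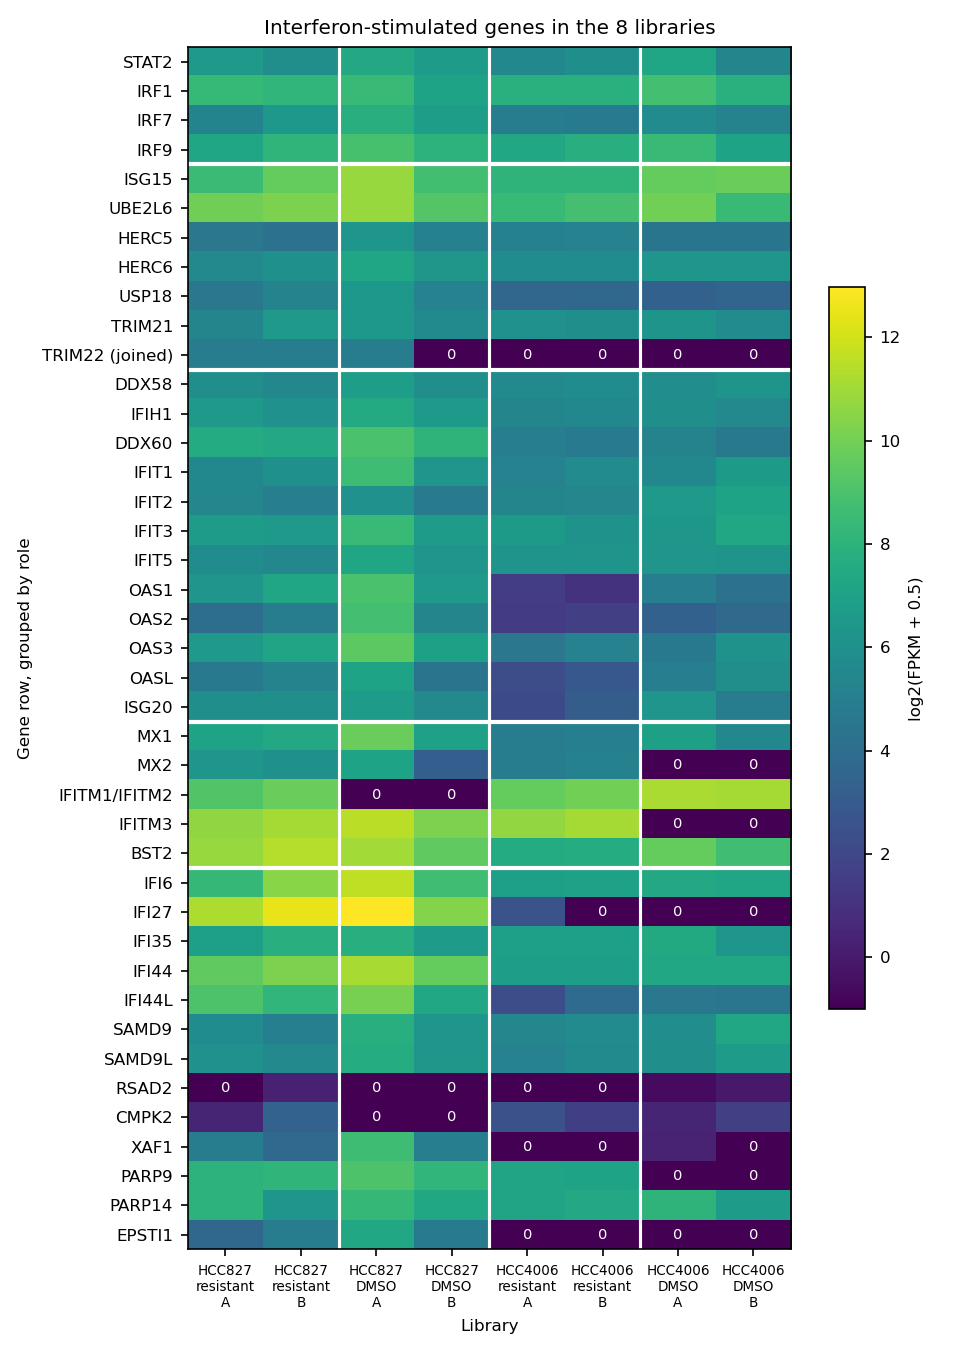
Level of each member row in each library as log2(FPKM + 0.5), in colour, with rows grouped by role and 0 marking values listed at 0. The column of DMSO HCC827 library A is the brightest across most rows, and IFI27, XAF1 and EPSTI1 are listed at 0 in at least 3 of the 4 HCC4006 libraries.

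Promoter letters were set beside these values as a description. The 20 rows with GAAANNGAAA and above 0 in both DMSO HCC827 libraries had a median A minus B of 1.48 log2 units, and the 11 without these letters had 1.03. The median resistant minus DMSO change in HCC827 was -0.76 with the letters and -0.79 without, and in HCC4006 it was -0.50 and -0.51. Windows with GAAANGAAA but without GAAANNGAAA belonged to XAF1, OAS1, IFI35, DDX58 and RSAD2. Their A minus B was 3.69 in XAF1, 2.39 in OAS1, 1.03 in IFI35 and 0.91 in DDX58, and RSAD2 was listed at 0 in both libraries.

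Other genes of the pathway were read from lists chosen with earlier results known. All 11 interferon ligand genes listed, among them IFNB1, IFNG and IFNL1, were at 0 in all 8 libraries. Over all rows limma called 5.13% higher and 1.67% lower in HCC827, and 6.37% higher and 2.98% lower in HCC4006, and the counts of these short lists are to be read beside those shares. Of 10 receptor and kinase rows, all tested, limma called 0 in HCC827, where 3 had an unadjusted p below 0.05, and 1 higher in HCC4006. That was IFNAR1, a chain of the type I receptor, at 181 and 153 FPKM in resistant HCC4006 and listed at 0 in both DMSO HCC4006 libraries (adjusted p = 0.000553).

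Of 15 sensor and adaptor rows, all tested, limma called 0 in HCC827, where 0 had an unadjusted p below 0.05, and 2 higher in HCC4006. AIM2, a sensor of DNA in the cytosol, was at 31.5 and 28.1 FPKM in resistant HCC4006, against 8.37 and 9.60 FPKM in DMSO HCC4006. It rose by 1.67 on the log2 scale (limma, adjusted p = 0.0340). That call was lost without any 1 of the 4 libraries, with log2 changes from 1.58 to 1.77. IFI16, a related sensor, was at 627 and 521 FPKM in resistant HCC4006 and listed at 0 in both DMSO HCC4006 libraries. Of 9 negative regulators, all tested, SOCS2, a feedback inhibitor of JAK signalling, was the 1 called, in HCC827. It was at 13.3 and 16.4 FPKM in resistant HCC827, against 105 and 160 FPKM in DMSO HCC827, and fell by 3.09 on the log2 scale (limma, adjusted p = 0.0116). The call was lost when any 1 library was left out, with log2 changes from -3.39 to -2.78. Those fits leave a lone library in a group, so the loss says little about SOCS2 itself.

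Of 45 further rows of interferon-induced genes, 40 were tested in HCC827 and 38 in HCC4006. Limma called 7 of the 40 higher in HCC827 and 4 of the 38 in HCC4006, against 5.13% and 6.37% of all rows. It called 0 lower in either line, where 4 and 3 had an unadjusted p below 0.05. SLFN11, which blocks stalled replication forks, was at 127 and 151 FPKM in resistant HCC827, against 10.3 and 8.35 FPKM in DMSO HCC827. It rose by 3.83 on the log2 scale (limma, adjusted p = 0.00332). That call was lost when any 1 library was left out, with log2 changes from 3.68 to 3.97, in fits with a lone library in a group. The other 6 in HCC827, which were SP110, TRIM34, APOL2, NT5C3A, IDO1 and ZNFX1, and all 4 in HCC4006, which were DTX3L, SP110, TRIM34 and ZNFX1, were listed at 0 in both DMSO libraries of their line. The row of TRIM34 also names TRIM6, and that of APOL2 also names Z82215.1. In DMSO HCC827, 29 of 31 rows of this further list above 0 in both libraries were higher in A, against 58.1% of all rows. Their median A minus B was 0.77, against 0.11 over all rows. Of the receptor and kinase rows 10 of 10 were higher in A, with a smaller median A minus B of 0.24. Of the sensor and adaptor rows 13 of 14 were, with a median of 0.66. Of the negative regulators 5 of 9 were, near the share of all rows, with a median of 0.42.

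Cell type markers were read beside these results. PTPRC, CD3E, CD3D, MS4A1 and NKG7, which mark immune cells, were listed at 0 in all 8 libraries, as were CLEC4C and LILRA4 of plasmacytoid dendritic cells. Of the 11 immune markers, CD68 and CSF1R were above 0 in every library. The 11 immune markers summed to 402 and 374 FPKM in resistant HCC827, against 371 and 325 FPKM in DMSO HCC827. They summed to 367 and 448 FPKM in resistant HCC4006, against 1192 and 355 FPKM in DMSO HCC4006. In each HCC827 group 2 of the 11 were above 0 in both libraries, and in each HCC4006 group 3 were. The sums therefore rest on few genes, and immune cell content was not tested. Among 5 epithelial markers, KRT7 was listed at 0 throughout. The 5 summed to 10151 and 16859 FPKM in resistant HCC827, against 15595 and 14601 FPKM in DMSO HCC827, and none of the 4 tested was called. They summed to 1772 and 1607 FPKM in resistant HCC4006, against 9381 and 15721 FPKM in DMSO HCC4006, and limma called 3 of 4 lower. EPCAM was at 183 and 113 FPKM in resistant HCC4006, against 1529 and 2003 FPKM in DMSO HCC4006, and CDH1 was at 3.03 and 3.29 FPKM in resistant HCC4006, against 1518 and 945 FPKM in DMSO HCC4006. Other markers were also called by limma in HCC4006. CSF1R, a receptor of macrophages, was at 10.8 and 12.3 FPKM in resistant HCC4006, against 65.99 and 56.6 FPKM in DMSO HCC4006, and fell by 2.36 log2 units (limma, adjusted p = 0.0120). It was the 1 immune marker called of 4 tested. The lung lineage factor NKX2-1, on a row that also names SFTA3, was at 30.3 and 21.9 FPKM in resistant HCC4006, against 121 and 124 FPKM in DMSO HCC4006, and fell by 2.23 log2 units (limma, adjusted p = 0.0190). PDGFRB, a fibroblast marker on a row shared with another gene, was at 21.9 and 26.2 FPKM in resistant HCC4006, against 2.57 and 0.764 FPKM in DMSO HCC4006, and rose by 3.63 log2 units (limma, adjusted p = 0.0385), the 1 called of 3 fibroblast markers tested. These marker changes stood beside the HCC4006 changes above, and their part in them was not tested.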

How the data were processed

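The authors deposited FPKM per gene in a table for each line, 4 libraries and 48405 rows in each. Per the submitters' processing notes, TopHat 1.4.1, Cufflinks 1.3.0 and Cuffdiff were used with hg19. Neither the annotation nor the options, nor any further scaling, is given in the sources used here. Per the labels' protocols, RNA came from miRNeasy columns and the TruSeq RNA v2 kit, which does not mark strand, made the libraries, so overlapping genes cannot be told apart. FPKM hold no counts, so the depth is unknown and no counting interval or detection floor is given.

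Groups were taken from the labels. The column letters A and B were not tied to the labels' replicate numbers. From the deposited FPKM, log2(FPKM + 0.5) was fitted in limma 3.58.1 (R 4.3.3; lmFit, eBayes with a trend) over rows with a mean of at least 0.5 FPKM, per line with 4 libraries, and over 8 libraries for the difference between the lines. P-values were adjusted by the Benjamini-Hochberg method across every row that a fit held. The fits were tested on simulated data. Tables and figures were made with Python 3.11.15, pandas 2.3.3 and matplotlib 3.10.9.

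The members, the lists and the tests were chosen with earlier results of these data known. Values in every library are given for members called in any comparison, and for members listed at 0 in a whole group while at 10 FPKM or more elsewhere in that line. For the 10 largest changes in each line, values are given at least in every library of that line. A few other members are given because of their level or their gap between libraries and were chosen after their values were seen. Alternatives covered the pseudocount, the filter, quantile normalization, the letter as a block, a fit over 8 libraries and each library left out. KRT18 was not used because its row lies on another chromosome. CGAS, HELZ2 and PECAM1 were not found by name.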

Additional observations from a re-analysis of the deposited data

Results flagged for a closer look

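The results below drew attention because the resistant minus DMSO change was called different in HCC827 and in HCC4006 by limma over all 8 libraries (Benjamini-Hochberg adjusted p below 0.05). For 9 of them a group was listed at 0, so the adjusted p stands alone and no size can be given. It was 1.712e-05 for IFITM1/IFITM2, listed at 0 in DMSO HCC827. It was 6.809e-05 for IFITM3 and 7.127e-05 for PARP9, both listed at 0 in DMSO HCC4006. Among the other pathway genes it was 0.0001636 for IFNAR1, 0.000212 for IFI16 and 0.0006107 for DTX3L, all listed at 0 in DMSO HCC4006. It was 3.95e-05 for APOL2, on a row that also names Z82215.1, 4.943e-05 for NT5C3A and 0.04756 for IDO1, all listed at 0 in DMSO HCC827. NT5C3A was also listed at 0 in all 4 HCC4006 libraries, so its value restates the change in HCC827 and compares no lines, and IDO1 was above 0 in a single HCC4006 library.

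For 5 pathway genes above 0 in all libraries, the log2 change in HCC827 minus that in HCC4006 can be given. It was 1.84 for STING1, which relays the DNA sensor signal, -1.74 for AIM2, -1.79 for SOCS2, 3.33 for SLFN11 and -2.22 for SLFN12. Over rows above 0 in all 8 libraries, SLFN11 alone of these 5 was called (limma, adjusted p = 0.0425). Leaving out each library in turn was done only in the main fit, which keeps rows with listed zeros. There the difference for SLFN11 ranged from 2.98 to 3.68, and its call was lost without resistant HCC4006 library A. For the other 4 at least 6 of 8 such fits missed the threshold.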

How the results depend on the processing

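With 2 libraries per group, results moved when 1 library was left out. The median change of the members in HCC827 ranged from -1.34 without DMSO library B to 0.052 without DMSO library A, a change of direction, and in HCC4006 from -0.53 to -0.36. The log2 changes in HCC827 then ranged from -1.70 to 0.35 for ISG15, -0.68 to 0.42 for ISG20, -0.85 to 0.46 for IFIT2, -2.48 to 0.29 for MX1, -0.92 to 3.01 for MX2, -2.15 to 0.25 for OAS1, -2.16 to 0.57 for OASL, -1.51 to 1.27 for IFI44L and -0.66 to 0.62 for IFITM3, with the positive ends, MX2 included, without DMSO A. For OAS3 in HCC4006 they ranged from -1.28 without DMSO A to 0.22 without DMSO B. Over all tested members, 11 of 40 in HCC827 changed sign without DMSO A, 5 without DMSO B, 3 without resistant A and 6 of 39 without resistant B. In HCC4006 these were 6, 3, 3 and 1. Members called lower in HCC4006 ranged from 0 to 4, members called higher in HCC827 from 0 to 2, and members whose change differed between the lines from 1 to 2 higher and from 2 to 4 lower. A lone library is assumed there to vary like the other groups. Fits over rows above 0 in every library, with or without a mean of at least 0.5 FPKM, called 0 members in each comparison and direction. The version with the mean was added after seeing the data. In HCC4006, members called lower numbered 3 with a pseudocount of 1, 2 without a filter and 2 in the fit over 8 libraries. Their identity also changed. The fit over 8 libraries called IFITM1/IFITM2 and ISG20, of which ISG20 was not called in the main fit. With 1 library left out, IFIT2, BST2, IRF1 and MX1, also not called in the main fit, were called lower in some fits. No filter means rows above 0 in any library, a definition set after a fit over all rows had called rows at 0 throughout. With the letter as a replicate block, 2 members were called lower in HCC4006 instead of 5, and 3 higher as before. In HCC827 the block left the counts at 1 and 0, and in the difference between the lines at 1 and 2. The letters were not taken to pair libraries, since no source states that they do. The A minus B gaps of the groups of a line correlated at 0.22 in HCC827 and -0.11 in HCC4006 over 13731 rows, which cannot settle the question. Between groups of different lines these correlations ran from -0.12 to 0.35, the highest for resistant HCC827 with DMSO HCC4006. Quantile normalization shifted the median of all rows to -0.24 in HCC827 and -0.19 in HCC4006, with members at -0.80 and -0.55, and turned IFI27 and UBE2L6 in HCC827 and TRIM21 and USP18 in HCC4006 from positive to negative. Depth could not be examined.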
